A study of Mus musculus with 12 samples.

Results

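The subject here is 7 of the 23235 genes in the series-wide expression table: Dcpp1, Dcpp2, Fam54a, Ggct, H2-Aa, Bcat2 and Agbl2. They were picked by symbol because their polysome-bound RNA was low in Cnot6l-/- (KO) mouse oocytes at 2 or 3 of the 3 stages sampled. The KO minus wild-type (WT) values given below are therefore the values that chose the genes, and they are described without a test. All 7 were found in the table, and all 7 were among the 11667 genes with a mean of at least 1 FPKM over the 12 libraries, which are called tested genes below.

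The 6 groups were KO and WT oocytes of 3 stages, the germinal vesicle stage (GV), MI and MII, with 2 libraries each. All came from mice of C57BL/6 background at postnatal day 21. The labels of the GV libraries name 48 h of PMSG, a gonadotropin that drives follicle growth, and those of the MI and MII libraries name culture for 8 h and 16 h. RNA bound to polysomes was purified and made into Tn5 libraries after pre-amplification of the cDNA. Values are FPKM as deposited, a unit that corrects fragment counts for transcript length and library size. Which part of Cnot6l is deleted, how the allele was made and whether the 2 libraries of a group are separate pools are not in the labels, so the spread between them may be technical. In bulk libraries, a lower FPKM cannot tell fewer oocytes carrying a transcript from less of it on the polysomes of each oocyte.

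Fully grown oocytes are transcriptionally silent, and meiotic maturation runs on stored maternal mRNAs. Some of these join polysomes as the oocyte passes from GV to MI and MII, while others are deadenylated and lost. The product of Cnot6l is a deadenylase within CCR4-NOT, the complex that shortens poly(A) tails. The 7 genes have no common pathway. Dcpp1 and Dcpp2 encode secreted demilune cell and parotid proteins, known from saliva and from the oviduct. Fam54a, now named Mtfr2, encodes a mitochondrial fission regulator. Ggct encodes gamma-glutamylcyclotransferase, which releases 5-oxoproline from gamma-glutamyl amino acids. H2-Aa encodes the alpha chain of the class II histocompatibility molecule I-A. Bcat2 encodes the mitochondrial branched-chain aminotransferase, and Agbl2 a carboxypeptidase that trims glutamate chains from tubulin.

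Library totals ran from 884142 to 1663871 FPKM, and 9064 to 13319 genes were above 0 per library. The factor behind these totals and the depth in reads are unknown. The median log2(FPKM + 1) difference KO minus WT over the 11667 tested genes was -0.06 at GV, 1.03 at MI, and 0.81 for MII. Most transcripts were thus higher in KO than in WT at MI and MII as deposited, against which the 7 genes were lower. Differences are given as deposited and, where marked relative, after subtracting this median. A gene could read 0 beside more than 20 FPKM in the replicate: this held for 34, 9 and 13 genes in KO GV, MI and MII, and for 20, 39 and 105 in the matching WT groups, so a listed 0 does not show that a transcript was missing. Of 16 oocyte markers, all were above 0 in all 12 libraries. Their levels were not equal between genotypes. By limma (adjusted p under 0.05), 0 were higher and 6 lower in KO at GV, where 0.163% and 1.4% of all tested genes were. At MI 10 were higher and 1 lower (27.9% and 0.463% of all tested genes), and at MII 12 were higher and 0 lower (25.4% and 3.2%).

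Both KO libraries lay below both WT libraries for 5 of the 7 genes at GV, for 7 of 7 at MI and for 7 of 7 at MII. Among all tested genes that held for 24.2% at GV, 3.13% at MI and 10.6% at MII. Dcpp1, Dcpp2, Fam54a, Ggct and H2-Aa met it at all 3 stages, as did 0.274% of tested genes (32 genes). Bcat2 and Agbl2 met it at MI and MII only, and 4.05% of tested genes (473) met it at 2 or 3 stages. Since this contrast chose the genes, nothing is read from these counts. Ranked by the mean of the 3 log2 differences among those 473 genes, Dcpp1 was the lowest and Dcpp2 the second, Agbl2 was rank 5, Bcat2 rank 6, H2-Aa rank 8, Fam54a rank 26 and Ggct rank 57. For genes with a KO group at 0, this mean depends on the added 1. The plot of FPKM by library shows each gene on its own scale.

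**Figure D1:**
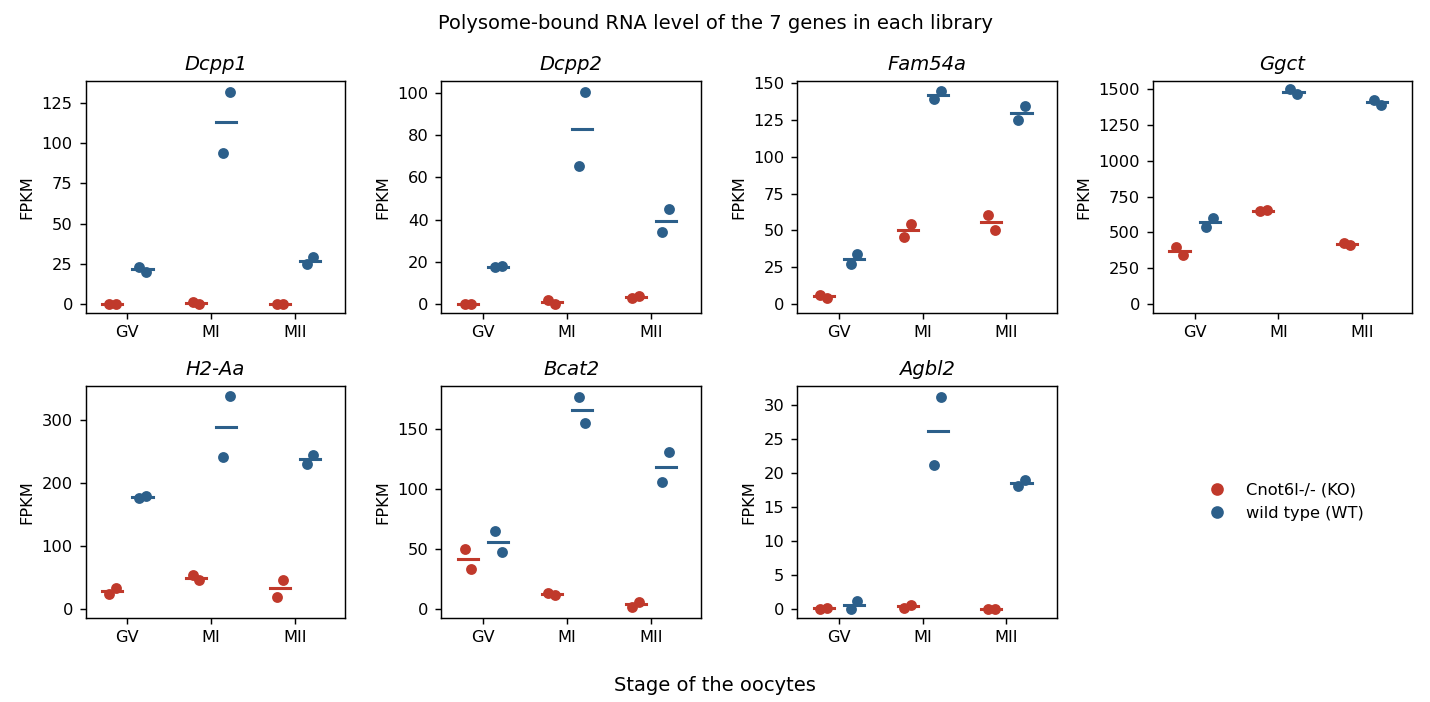
FPKM (vertical axes, linear, one scale per gene) of the 7 genes in KO (red, left) and WT (blue, right) oocytes at GV, MI and MII; points are single libraries and bars are means of 2. At MI and MII every KO point lies below every WT point; at GV the groups overlap for Bcat2 and Agbl2.

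Dcpp1 lies on chromosome 17 (24017843 to 24019820, plus strand, build mm9). It was listed at 0 in both KO GV libraries, against 23.2 and 19.8 FPKM in WT GV. MI libraries had 0.80 and 0 FPKM in KO, against 93.7 and 132.1 in WT. At MII it was again listed at 0 in both KO libraries, against 24.5 and 28.9 FPKM in WT. The gene was thus at or next to 0 in every KO library, while WT held it at each stage and most at MI. At MI the KO mean was 0.354% of the WT mean and the log2 difference was -6.39 (relative -7.42), the largest single value among the 7 genes.

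Dcpp2 starts 17.8 kb further along chromosome 17 (24035689 to 24037754, plus strand). It was listed at 0 in both KO GV libraries, against 17.4 and 17.9 FPKM in WT GV. The MI values were 1.61 and 0 FPKM in KO, against 65.2 and 100.7 in WT. At MII it had 2.64 and 3.73 FPKM in KO, against 34.0 and 44.8 in WT. Unlike Dcpp1, Dcpp2 was above 0 in both KO MII libraries, at 8.09% of the WT mean. Its log2 difference was -5.67 at MI (relative -6.70) and -3.27 at MII (relative -4.09).

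Dcpp3, the third paralog, starts 18.7 kb beyond Dcpp2 (24054425 to 24056408, plus strand) and was not low in KO. It had 9.77 and 34.0 FPKM in KO GV, against 27.9 and 20.9 in WT GV. Its MI values were 50.4 and 54.0 FPKM in KO, against 8.83 and 17.03 in WT. At MII it had 19.5 and 27.9 FPKM in KO, against 10.8 and 5.34 in WT. The groups overlapped at GV, and KO lay above WT at MI and MII. By limma over all tested genes, Dcpp3 rose in KO at MI (log2 difference 2.00, SE 0.59, adjusted p = 0.031), and it was not called at MII (1.49, adjusted p = 0.0862) or at GV (-0.37, adjusted p = 0.934). Relative to the median of all genes the MI difference was 0.97, and with each library scaled to a common median it was 1.07 (adjusted p = 0.393; 0.018 to 0.467 over all alternatives). The MI call was also lost without KO MI replicate 1 (adjusted p = 0.121), KO MI replicate 2 (0.139) or WT MI replicate 1 (0.149), and Dcpp3 passed at MII when KO GV replicate 1 (0.0458) or 2 (0.0487) was left out. The 3 paralogs summed to 9.77 and 34.0 FPKM in KO GV, against 68.5 and 58.5 in WT GV. Their MI sums were 52.8 and 54.0 FPKM in KO, against 167.8 and 249.9 in WT. Their MII sums were 22.1 and 31.7 FPKM in KO, against 69.3 and 79.0 in WT. The sums did not overlap at any stage. Dcpp3 made up 88.1% to 100% of that sum in the KO libraries and 5.26% to 40.7% in the WT libraries. Dcpp1 and Dcpp2 were chosen as low in KO, so the order of the sums and these shares follow in part from the choice.

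**Figure D2:**
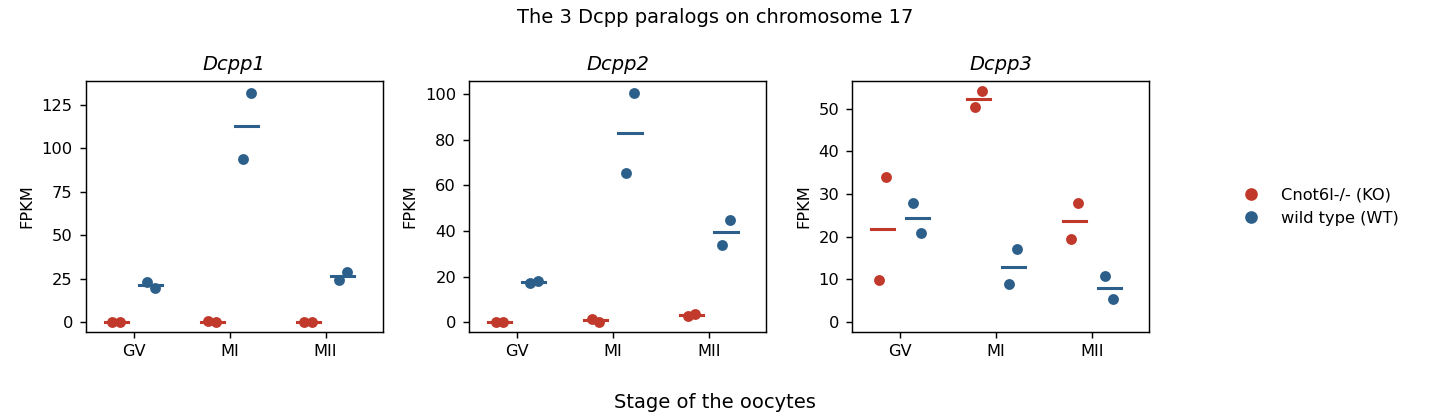
FPKM (vertical axes, linear, one scale per gene) of Dcpp1, Dcpp2 and Dcpp3 in KO (red, left) and WT (blue, right) oocytes at GV, MI and MII; points are single libraries and bars are means of 2. Dcpp1 and Dcpp2 sit at or near 0 in KO, while Dcpp3 in KO lies above WT at MI (50.4 and 54.0 against 8.83 and 17.03).

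How far reads can tell the paralogs apart bears on these values. In the GENCODE M1 transcripts (build NCBIM37, the same as mm9), Dcpp1 and Dcpp2 were 93.5% identical, Dcpp1 and Dcpp3 93.4%, and Dcpp2 and Dcpp3 95.4%. Of all runs of 50 bases, 56.7% of those of Dcpp1, 66.5% of those of Dcpp2 and 63.5% of those of Dcpp3 were in neither of the other 2. Reads from the remaining stretches fit more than 1 paralog, and how the authors assigned them is not given in the sources used here, so the split between paralogs is uncertain. The annotation also has Dcpp2 transcripts that start within the Dcpp1 locus. The stretch of 150 coding bases below is shown because it holds 29 of the 45 positions, of 516 aligned, at which the 3 coding sequences differ. Capitals mark bases that are not the same in all 3.
Dcpp1: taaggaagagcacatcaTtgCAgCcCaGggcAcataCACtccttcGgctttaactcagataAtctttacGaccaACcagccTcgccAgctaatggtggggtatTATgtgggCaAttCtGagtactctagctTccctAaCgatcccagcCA
Dcpp2: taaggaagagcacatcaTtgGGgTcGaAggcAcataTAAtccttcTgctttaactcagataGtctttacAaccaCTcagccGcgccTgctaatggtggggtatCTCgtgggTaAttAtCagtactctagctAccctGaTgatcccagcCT
Dcpp3: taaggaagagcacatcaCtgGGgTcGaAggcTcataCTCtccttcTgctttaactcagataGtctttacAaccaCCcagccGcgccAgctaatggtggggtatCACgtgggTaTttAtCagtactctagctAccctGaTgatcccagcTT
The stretch covers coding positions 258 to 407 of Dcpp1 and Dcpp2 and 255 to 404 of Dcpp3. Upstream, the 250 bases before each start (RefSeq, GRCm38.p6) were 93.3% to 96.4% identical between pairs of paralogs, and 19 of 255 aligned columns differed in at least 1 of them. TATAA, on either strand, was in that window of Dcpp1, Dcpp2 and Dcpp3 and of none of the other members. It was in 22.8% of 32851 RefSeq promoters.

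H2-Aa lies on the same chromosome, 10.4 Mb from Dcpp1 (34419696 to 34424716, minus strand). It had 23.4 and 32.8 FPKM in KO GV, against 175.8 and 179.9 in WT GV. MI libraries had 54.4 and 45.3 FPKM in KO, against 241.0 and 338.4 in WT. At MII it had 19.6 and 46.6 FPKM in KO, against 231.0 and 245.0 in WT. The KO mean was 15.8%, 17.2% and 13.9% of the WT mean at GV, MI and MII. The log2 differences were -2.64, -2.50 and -2.93 (relative -2.58, -3.53 and -3.75). The 2 KO MII libraries lay apart, and with either left out the MII difference was -3.54 or -2.33.

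A class II molecule pairs H2-Aa with the beta chain H2-Ab1, is loaded with help of the invariant chain Cd74 and the H2-DM proteins, and is switched on by the coactivator Ciita. Cd74, Ciita, H2-Eb2, H2-DMb2 and H2-Ob were at 0 in all 12 libraries. H2-Ab1 was at 0 in 11 libraries and at 6.65 FPKM in WT MII replicate 2. Of 14 leukocyte markers, 5, among them the pan-leukocyte gene Ptprc and the signalling adaptors Tyrobp and Fcer1g, were at 0 in all libraries. The 14 summed to 5.38 to 34.8 FPKM in KO libraries and 1.82 to 8.98 FPKM in WT libraries, and at each stage both KO sums lay above both WT sums. The largest sum, in KO GV replicate 1, was mostly Cd68 (23.1 FPKM) and Laptm5 (11.3 FPKM). These 2 were the only ones tested, and neither was called at any stage. The median of all tested genes was also higher in KO at MI and MII. Whether leukocytes were a source of H2-Aa was not tested. Of 12 class II partners listed, 4 were tested, and their median differences by stage were -0.04, 1.11 and 1.28, next to -0.06, 1.03 and 0.81 over all tested genes. At GV none of the 4 was called (background 0.163% higher and 1.4% lower by limma). At MI none was called (background 27.9% higher and 0.463% lower). At MII 1 was called higher, H2-Oa, a chain of the peptide-editing modulator H2-O (background 25.4% higher and 3.2% lower). H2-Oa had 4.98 and 11.4 FPKM in KO MII, against 0 and 1.31 in WT MII (log2 difference 2.50, SE 0.59, limma adjusted p = 0.0102), a call that was lost with quantile normalization. Class II promoters carry a Y box, an inverted CCAAT element, and the 120 bases directly before the H2-Aa start (RefSeq, GRCm38.p6, chr17:34287824-34287943, minus strand) are shown because they hold it. Capitals mark the inverted CCAAT.
H2-Aa: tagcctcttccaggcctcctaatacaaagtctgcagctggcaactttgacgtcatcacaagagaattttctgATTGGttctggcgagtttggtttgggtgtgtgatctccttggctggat
CCAAT, on either strand, was in the 250 bases before the start of H2-Aa, Fam54a and Ggct, in none of those of the other 4 members, and in 33.8% of RefSeq promoters.

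Fam54a lies on chromosome 10 (20067625 to 20081475, plus strand). It had 6.21 and 3.77 FPKM in KO GV, against 26.8 and 34.1 in WT GV. The MI values were 45.6 and 54.5 FPKM in KO, against 139.2 and 144.6 in WT. At MII it had 60.7 and 50.03 FPKM in KO, against 125.5 and 134.4 in WT. Fam54a climbed in both genotypes between GV and MI, and its KO mean was 16.4% of the WT mean at GV, 35.2% at MI and 42.6% at MII. As deposited the log2 difference was -2.41, -1.49 and -1.22 at GV, MI and MII, but relative to the median of all genes it stayed between -2.36 and -2.04 at GV and MII, with -2.52 at MI.

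Of 13 other mitochondrial fission and fusion genes, 12 were tested, and none was called at GV. At MI 5 were called higher in KO and 0 lower, where 27.9% of all tested genes were called higher. At MII it was again 5 higher and 0 lower, where 25.4% were called higher. Fam54b, a paralog of Fam54a, had 220.2 and 248.8 FPKM in KO MI, against 79.3 and 91.4 in WT MI (log2 difference 1.45, SE 0.23, limma adjusted p = 0.00193), and 148.7 and 132.8 FPKM in KO MII, against 23.4 and 35.3 in WT MII (2.25, adjusted p = 5.8e-05). Mtfr1, the other paralog, was called at MII only, with 32.5 and 32.3 FPKM in KO, against 12.4 and 0.89 in WT (2.73, adjusted p = 0.0182). The fission GTPase gene Dnm1l (1.87, adjusted p = 0.00788) and the protease gene Oma1 (2.05, adjusted p = 0.00186) rose in KO at MI as deposited. With median scaling or quantile normalization no gene of this list was called at MI, with TPM only Oma1 was, and Mtfr1 at MII was called with TPM only. Fam54b at MII was called under all 3. The medians of the 12 genes were -0.19, 0.91 and 0.90 at GV, MI and MII, close to those of all genes.

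Ggct, the most abundant of the 7, lies on chromosome 6 (54935089 to 54942861, minus strand). It had 394.3 and 342.5 FPKM in KO GV, against 539.9 and 598.4 in WT GV. MI libraries had 651.1 and 652.5 FPKM in KO, against 1500 and 1467 in WT. At MII it had 426.6 and 407.6 FPKM in KO, against 1426 and 1389 in WT. The gap widened with stage: the KO mean was 64.7% of the WT mean at GV, 43.9% at MI and 29.6% at MII. The log2 differences were -0.63, -1.19 and -1.75 (relative -0.57, -2.21 and -2.57), and replicates differed by far less than the groups at each stage. Ggct ranked above 95.5% to 96.3% of tested genes in the KO groups and 96.6% to 99.2% in the WT groups.

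Of 15 other genes of the gamma-glutamyl cycle and glutathione metabolism, 10 were tested and 4, including the transpeptidases Ggt5, Ggt6 and Ggt7, were at 0 in all libraries. At GV 1 was called lower in KO and 0 higher. That gene was Chac1, which degrades glutathione: it was listed at 0 in both KO GV libraries, against 7.49 and 14.7 FPKM in WT GV (limma adjusted p = 0.00993). That call was lost without KO GV replicate 1, without WT GV replicate 2, with a replicate block and in a fit of the compared groups alone. At MI and MII the values were in the reverse order. Chac1 was the 1 gene called higher at MI (27.9% of all tested genes were) and, with the transpeptidase gene Ggt1, 1 of 2 at MII (25.4% were). It had 18 and 18.5 FPKM in KO MI, then 5.75 and 4.35 FPKM in KO MII, and was listed at 0 in both WT MI and both WT MII libraries (limma adjusted p = 6.5e-04 and 0.00596). Its MII call was lost with quantile normalization. Ggt1 had 18.1 and 9.62 FPKM in KO MII, against 0.66 and 0 in WT MII (limma adjusted p = 8.0e-04). No gene of the list was called lower at MI or MII.

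Bcat2 lies on chromosome 7 (52825523 to 52845080, plus strand). It had 49.9 and 33.6 FPKM in KO GV, against 65.1 and 47.1 in WT GV, and the 2 groups overlapped. At MI it had 13.5 and 11.7 FPKM in KO, against 176.8 and 154.5 in WT. At MII it had 1.60 and 5.98 FPKM in KO, against 105.7 and 130.7 in WT. Between GV and MI, Bcat2 was thus lower with stage in KO and higher with stage in WT. The KO mean was 74.4% of the WT mean at GV, 7.59% at MI and 3.21% at MII, with log2 differences of -0.43, -3.62 and -4.80 (relative -0.37, -4.65 and -5.61). The annotated gene 0610005C13Rik overlaps Bcat2 on the opposite strand. It was at 0 in all 12 libraries.

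Branched-chain amino acids are transaminated by Bcat1 in the cytosol and Bcat2 in mitochondria, then oxidised by the branched-chain keto acid dehydrogenase (Bckdha, Bckdhb, Dbt and Dld) and the enzymes after it. Of 24 other genes of this route, 22 were tested, and none was called at GV. At MI 5 were called higher in KO and 0 lower (27.9% and 0.463% of all tested genes), and at MII 9 were called higher and 1 lower (25.4% and 3.2%). Bcat1 had 18.5 and 14.8 FPKM in KO MI, against 6.21 and 3.24 in WT MI (log2 difference 1.67, SE 0.52, limma adjusted p = 0.0364), the reverse order of Bcat2. The dehydrogenase subunit gene Dld (1.59, adjusted p = 0.00381) and the isovaleryl-CoA dehydrogenase gene Ivd (2.00, adjusted p = 0.00173) rose in KO at MI as deposited. With median scaling or quantile normalization none of the 22 was called at MI, and with TPM only Ivd was. At MII the 3 largest increases were Hsd17b10 (4.39, SE 0.93, adjusted p = 0.00582), Aldh6a1 (4.39, adjusted p = 8.6e-04) and Mcee (3.94, adjusted p = 5.0e-04), all enzymes downstream of the dehydrogenase. In WT MII, Hsd17b10 had 0 and 14.9 FPKM and Aldh6a1 1.34 and 0, so the sizes for these 2 genes depend on the added 1. The 1 gene called lower was Dbt, the transacylase core of the dehydrogenase. Dbt had 16.9 and 7.47 FPKM in KO MII, against 42.6 and 39.8 in WT MII (-1.78, SE 0.57, adjusted p = 0.0387; with median scaling -2.37, adjusted p = 0.0128). The Dbt call was lost with a pseudocount of 0.1, without the filter, with a replicate block and in a fit of the compared groups alone. It was also lost without WT GV replicate 1 or 2, KO MI replicate 1 or 2, KO MII replicate 2 or WT MII replicate 2. It had 1.60 and 4.62 FPKM in KO GV, against 7.36 and 5.17 in WT GV, and 6.91 and 13.3 FPKM in KO MI, against 20.8 and 19.9 in WT MI, so it too was below WT at all 3 stages. The medians of the 22 genes were -0.37, 1.37 and 1.40 at GV, MI and MII.

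Agbl2 lies on chromosome 2 (90622901 to 90656388, plus strand). It had 0 and 0.14 FPKM in KO GV, against 0 and 1.10 in WT GV, and was thus near 0 in both genotypes. At MI it had 0.21 and 0.61 FPKM in KO, against 21.2 and 31.2 in WT. At MII it was listed at 0 in both KO libraries, against 18.1 and 19.0 FPKM in WT. Agbl2 was therefore seen in cultured WT oocytes and hardly at all in any KO group. At MI the KO mean was 1.57% of the WT mean, with a log2 difference of -4.26 (relative -5.29).

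Agbl2 belongs to the cytosolic carboxypeptidases that shorten the glutamate chains which the Ttll ligases add to tubulin. Of 20 other genes listed for these reactions, 18 were in the table and 11 were tested. At GV none was called, and at MI and MII 3 each were called higher in KO and 0 lower, where 27.9% and 25.4% of all tested genes were called higher. None of the MI calls held with TPM, median scaling or quantile normalization. The ligase gene Ttll11 had 112.4 and 82.0 FPKM in KO MI, against 29.8 and 37.0 in WT MI (log2 difference 1.50, SE 0.51, limma adjusted p = 0.0491), and 43.3 and 37.3 FPKM in KO MII, against 10.1 and 2.53 in WT MII (2.72, adjusted p = 0.00278). The ligase gene Ttll1 was called higher at MI (2.11, limma adjusted p = 0.0428) and at MII, where it had 6.08 and 6.81 FPKM in KO and was listed at 0 in both WT libraries (adjusted p = 0.01). The MII call of Ttll1 was lost with quantile normalization. Agtpbp1, another carboxypeptidase of the family, was not called at any stage: it had 37.1 and 43.1 FPKM in KO MI, against 69.1 and 50.3 in WT MI.

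Over all 6 pathway lists, 60 genes other than the 7 were tested. At GV 0 were called higher and 1 lower, at MI 15 higher and 0 lower, and at MII 20 higher and 1 lower, where 27.9% and 25.4% of all tested genes were called higher at MI and MII. With median scaling 0 were called higher and 1 lower at GV. The MI counts were then 1 higher and 0 lower, and the MII counts 16 higher and 3 lower. The 3 lower ones were then Dbt, Bckdhb and Chac2.

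**Figure D3:**
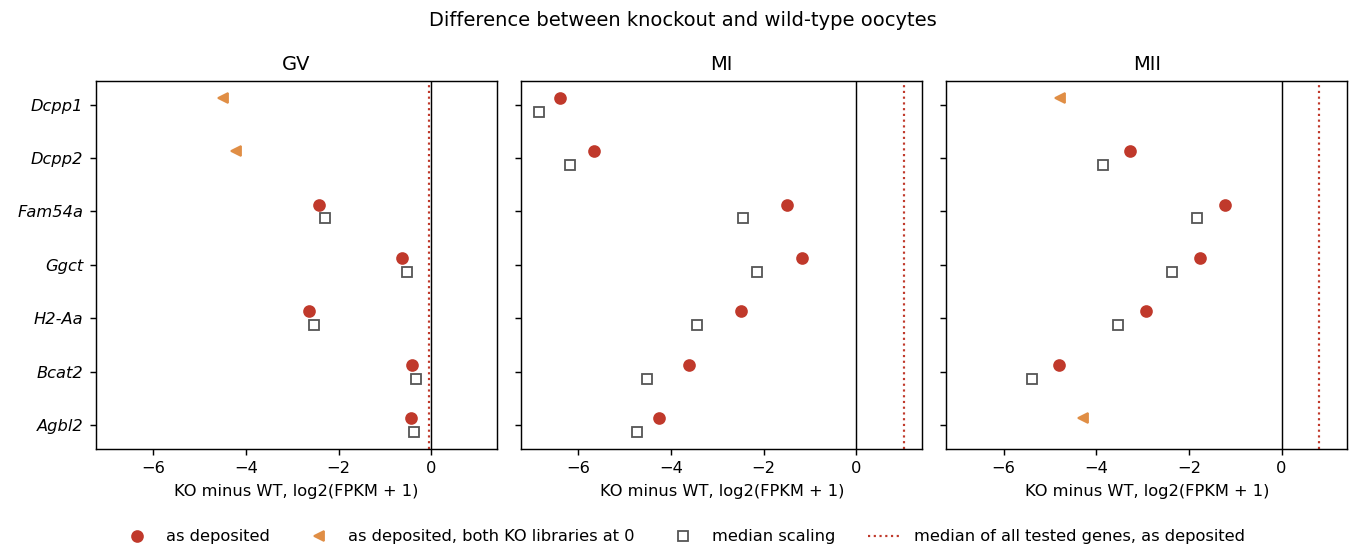
KO minus WT difference on the log2(FPKM + 1) scale (horizontal axes) of the 7 genes at GV, MI and MII, as deposited (red circles) and with median scaling of each library (open squares); orange triangles mark groups with both KO libraries at 0, where the size depends on the added 1. Dotted lines mark the median of all tested genes (-0.06, 1.03 and 0.81); all plotted values lie left of 0.

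Within WT oocytes, most of the 7 genes gained polysome-bound RNA from GV to MI, when the median of all tested genes was -0.87. By limma 6 of 7 were called higher and 0 lower, where 3.06% of tested genes were called higher. WT libraries took part in choosing the genes, since a high WT value at MI makes a gene low in KO by comparison, so this count is not independent of the choice. Agbl2 rose by 4.20 (SE 0.59, adjusted p = 7.7e-04), Dcpp1 by 2.32 (SE 0.52, adjusted p = 0.00924), Fam54a by 2.19 (SE 0.30, adjusted p = 7.4e-04) and Dcpp2 by 2.14 (SE 0.56, adjusted p = 0.0204). Agbl2 met the filter of a mean of at least 1 FPKM only through its WT MI and MII libraries, so nothing is read from its p-value. Bcat2 rose by 1.56 (SE 0.45, adjusted p = 0.0307) and Ggct by 1.38 (SE 0.10, adjusted p = 1.2e-05). H2-Aa was not called (0.68, SE 0.37, adjusted p = 0.201), though with median scaling it was (1.35, adjusted p = 0.0328; 0.0328 to 0.544 over all alternatives). With a pseudocount of 0.1 only Fam54a, Ggct and Agbl2 passed. Without WT GV replicate 2, Dcpp1, Dcpp2 and Bcat2 were not called, leaving 3. Dcpp2 and Bcat2 also lost their call without WT GV replicate 1 or WT MI replicate 2, and Bcat2 without WT MI replicate 1.

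From MI to MII in WT, 1 of the 7 fell and 0 rose, where 16.4% of tested genes were called lower. Dcpp1 fell by 2.03 (SE 0.52, limma adjusted p = 0.0179), and this call was lost without WT MI replicate 2 (adjusted p = 0.0828) or WT MII replicate 1 (adjusted p = 0.0641). For the other 6, the log2 change was between -1.04 (Dcpp2) and -0.08 (Ggct), and none passed the test.

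The KO libraries also took part in choosing the genes, so the KO stage changes are no more independent of the choice than those in WT. From GV to MI, 2 of the 7 were called higher, where 8.89% of tested genes were called higher: Fam54a rose by 3.12 (SE 0.30, limma adjusted p = 7.9e-05) and Ggct by 0.82 (SE 0.10, adjusted p = 4.1e-04). The reverse was called for 1 gene, where 1.35% of tested genes were called lower: Bcat2 fell by 1.63 (SE 0.45, adjusted p = 0.0463). The Bcat2 call is close to the threshold, and it was lost without any 1 of the 8 KO or WT libraries of GV and MI (adjusted p = 0.0671 to 0.242). The Ggct call was lost when libraries were rescaled to the same total (0.20, adjusted p = 0.310) and with quantile normalization (0.33, adjusted p = 0.109). Dcpp1, Dcpp2, H2-Aa and Agbl2 were not called. From MI to MII in KO, 1 of the 7 was called lower, where 7.18% of tested genes were, and 0 higher. Ggct fell by 0.64 (SE 0.10, adjusted p = 0.00433), where the median of all genes was -0.59. With median scaling the change was -0.06 (adjusted p = 0.944; 0.00334 to 0.977 over all alternatives), and without KO MI replicate 2 the call was lost (adjusted p = 0.0507). Bcat2 was not called (-1.67, adjusted p = 0.0525), but was without KO MII replicate 2 (-2.38, adjusted p = 0.0171), WT MII replicate 1 (0.0381) or WT MII replicate 2 (0.0384). Whether a stage change differed between genotypes was not tested for the 7 genes, since that difference is made of the values that chose them.

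**Figure D4:**
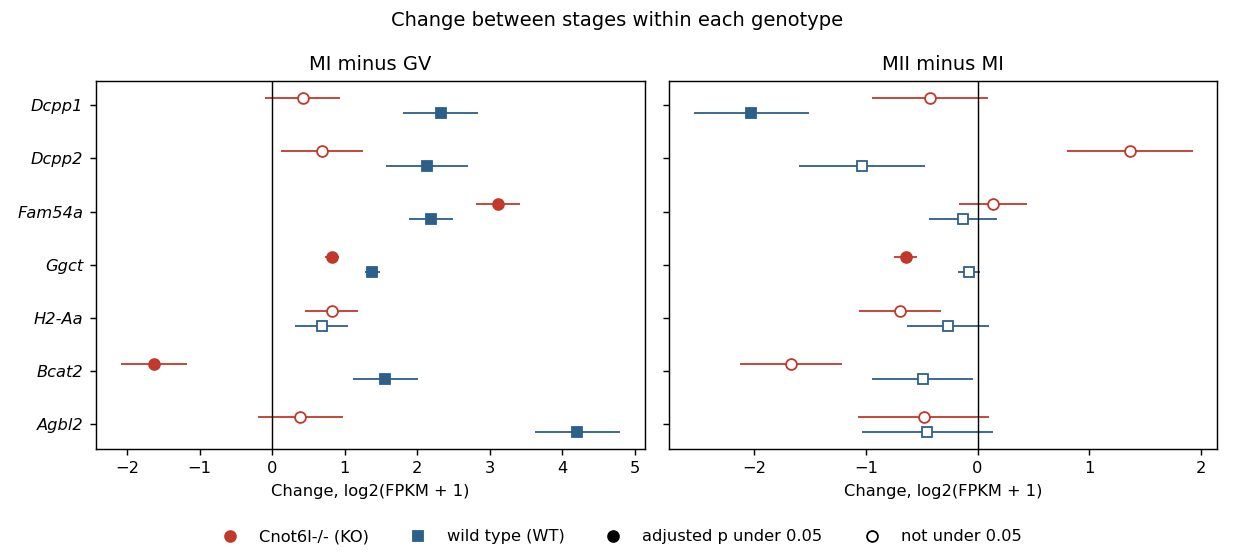
Change between stages on the log2(FPKM + 1) scale (horizontal axes, with SE from limma) of the 7 genes in KO (red circles) and WT (blue squares) oocytes; filled symbols have an adjusted p under 0.05. In the left panel 6 WT changes are filled and above 0. Of the KO changes there, Fam54a and Ggct are filled above 0 and Bcat2 is filled below 0. Both genotypes took part in choosing the genes, so these calls are not independent of the choice, and the difference between genotypes was not tested.

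In order of level, Ggct came first in every group. In KO MI it was followed by Fam54a and H2-Aa, whose libraries overlapped, then Bcat2, and then Dcpp2, Agbl2 and Dcpp1, whose libraries overlapped. In WT MI the order was Ggct, H2-Aa, Bcat2, Fam54a, Dcpp1, Dcpp2 and Agbl2, and only Dcpp1 and Dcpp2 overlapped as neighbours in it. In WT GV no neighbours overlapped, and Agbl2 stood above 3.06% of tested genes, against 69.3% in WT MI.

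None of the 7 genes lies on chromosome 5, where Cnot6l is (96505816 to 96591009, minus strand). Cnot6l itself had 6.28 and 21.6 FPKM in KO GV, against 38.7 and 16.1 in WT GV, which overlap. At MI it had 23.5 and 16.5 FPKM in KO, against 68.5 and 47.9 in WT, and at MII 16.4 and 16.0 FPKM in KO, against 65.2 and 49.4 in WT. By limma it was lower in KO at MII (-1.75, SE 0.57, adjusted p = 0.0425) and not called at MI (-1.49, adjusted p = 0.0726) or GV (-1.02, adjusted p = 0.626). The MII call of Cnot6l was lost with a pseudocount of 0.1 (adjusted p = 0.0534), without the filter (0.0688), with a replicate block (0.0839) and without any 1 of the 8 MI and MII libraries (0.0524 to 0.141). Of the 5 listed genes on each side of Cnot6l, 6 were tested, none was called lower at any stage, and 3 at MI and 4 at MII were called higher, where 27.9% and 25.4% of all tested genes were. Those at MII include Gm6367, with 415.1 and 407.9 FPKM in KO MII, against 59.4 and 54.6 in WT MII (2.83, adjusted p = 8.1e-07), and D5Ertd577e, with 130.2 and 128.0 FPKM, against 10.9 and 4.54 (adjusted p = 2.1e-05).

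As deposited, no direct neighbour of the 7 genes was called lower in KO. Of 60 genes within 5 places on either side, 26 were tested and 16 were at 0 in all libraries. At GV limma called 0 higher and 0 lower (2 in each direction at an unadjusted p under 0.05). At MI it called 5 higher and 0 lower, and at MII 6 higher and 0 lower, with 0 lower at an unadjusted p under 0.05 at both stages. Of all tested genes, 27.9% and 25.4% were called higher at MI and MII. Their median differences were -0.06, 1.13 and 0.87 at GV, MI and MII, next to -0.06, 1.03 and 0.81 for all tested genes. Beside the Dcpp genes, Tceb2 had 581.9 and 593.4 FPKM in KO MI, against 224.3 and 240.0 in WT MI (1.34, adjusted p = 0.00102). Beside Fam54a, Map3k5 was called higher at MI (1.94, adjusted p = 0.0157) and MII (1.85, adjusted p = 0.0164). The MI call of Tceb2 and both of Map3k5 were lost with TPM, median scaling and quantile normalization. Beside Agbl2, Ndufs3 was called higher at MII (3.23, adjusted p = 0.00721). With median scaling, 1 neighbour was called lower at MI: Fnbp4, directly before Agbl2, with 108.9 and 102.2 FPKM in KO MI, against 122.0 and 135.0 in WT MI (-1.24, adjusted p = 0.00893; as deposited -0.28, adjusted p = 0.335).

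On chromosome 17 lie 3 of the 7 genes. Of the 32 genes below WT at all 3 stages, 8 (25%) are on that chromosome, which holds 5.03% of tested genes, and 0 are on chromosome 5, which holds 6.83%. Chromosome 9 has 5 (15.6%, with 5.71% of tested genes) and chromosome 3 has 4 (12.5%, with 4.61%). Chromosomes 7 and 11, with 7.62% and 7.82% of tested genes, also have 0, as do chromosomes 12, 18 and 19. The 8 on chromosome 17 include the chosen Dcpp1, Dcpp2 and H2-Aa, of which the first 2 are adjacent paralogs. The others are Dnahc8, Umodl1, A930015D03Rik, Trim15 and Cdc5l, which were listed after their values were seen. The 8 span 21.6 Mb, from 24017843 to 45570656, and make up 2.84% of the 282 tested genes between these ends. These ends were set by the genes themselves, so none of the 305 tested genes on the rest of the chromosome could be among them. On other chromosomes 24 of 11080 tested genes met the rule. The median differences of the 282 genes were -0.20, 0.94 and 1.01 at GV, MI and MII. Cdc5l, a splicing factor gene at the far end, had 1.67 and 1.15 FPKM in KO GV, against 9.62 and 11.2 in WT GV. Its MI values were 1.24 and 4.16 FPKM in KO, against 8.87 and 10.7 in WT, and its MII values 0 and 0.42 FPKM in KO, against 10.4 and 21.8 in WT. Trim15 had log2 differences of -1.01, -1.84 and -2.20, and Umodl1 of -0.33, -0.45 and -0.33. Counted over genes below WT at 2 or 3 stages, chromosome 17 held 25 of 473 (5.29%) and chromosome 5 held 39 (8.25%). Positions were examined after the 7 genes had been chosen, and no test was made of them.

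**Figure D5:**
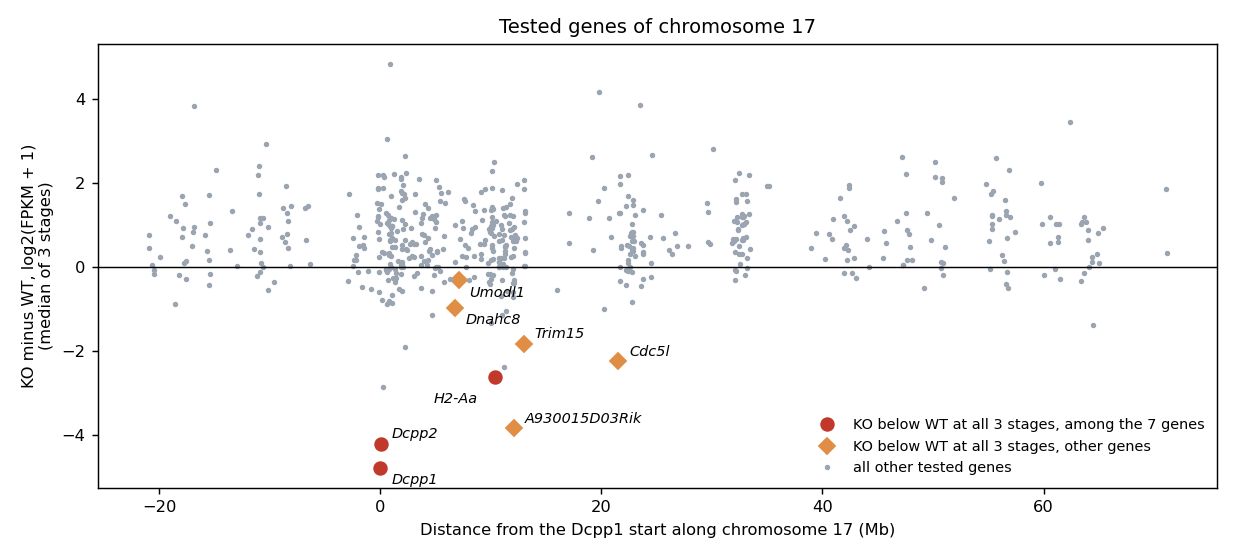
Median over 3 stages of the KO minus WT difference on the log2(FPKM + 1) scale (vertical axis) of the tested genes of chromosome 17 against their distance in Mb from the start of Dcpp1. The 8 genes below WT at all 3 stages (red circles and orange diamonds) lie within 21.6 Mb among genes (grey) with differences mostly above 0; the values of Dcpp1 and Dcpp2 come from groups at 0 in KO and depend on the added 1.

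Across the 12 libraries, Dcpp1 followed H2-Aa (Pearson's r = 0.959 of log2 values) and Dcpp2 (0.955), and Ggct followed Agbl2 (0.956). The lowest value was between Fam54a and Bcat2 (0.236). Among all other tested genes, Hormad1 was in the 3 nearest for Dcpp1 (0.924), Dcpp2 (0.903), Ggct (0.948), H2-Aa (0.920) and Agbl2 (0.941). Hormad1, a meiotic chromosome axis gene, had 0 and 0.36 FPKM in KO GV, against 2.85 and 3.93 in WT GV. Its MI values were 1.57 and 1.78 FPKM in KO, against 39.8 and 37.9 in WT, and its MII values 0 and 1.22 FPKM in KO, against 13.3 and 15 in WT. Its values were low in KO at each stage and highest in WT MI. A high r with genes chosen as low in KO favours low KO values. Alyref2 was nearest for Ggct (0.981) and Agbl2 (0.967), Tceal8 the second for Dcpp1 (0.910) and Dcpp2 (0.849), and Gm8994 and Fstl5 the third for these 2 genes (0.901 and 0.845). Pigp was the third for Ggct (0.937). For Fam54a they were Fbxw28 (0.950), Chac2 (0.940) and Pttg1 (0.929), for Bcat2 Traf3ip1 (0.946), Rrs1 (0.941) and Khdc1c (0.882), for H2-Aa after Hormad1 Cdc5l (0.908) and A930015D03Rik (0.887), and for Agbl2 after Hormad1 Celsr1 (0.912). These correlations describe 12 libraries that share their genotype and stage differences. The KO libraries among them were used to choose the genes as low in KO. High r between the chosen genes therefore follows in part from the choice. The same choice favours genes low in KO as their nearest genes, so the correlations are a description only.

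At the 3' ends, the last 100 bases of the deposited gene models (mm9) were searched on the sense strand for elements known from oocyte mRNAs. TTTTAT or TTTTAAT, the cytoplasmic polyadenylation element, was in 0 of the 7 genes and in 19.1% of 11666 tested genes. AATAAA, the cleavage signal, was in Dcpp1, Dcpp2, Fam54a, H2-Aa and Bcat2 and in 64.2% of tested genes. ATTTA, the AU-rich pentamer, was in Agbl2 alone among the 7 and in 22.3% of tested genes. The matches describe these windows of the gene models only.

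Other cell types were read beside these values. The 15 cumulus and granulosa markers summed to 149.4 and 213.0 FPKM in KO GV, against 284.6 and 309.0 in WT GV. Their MI sums were 160.4 and 143.6 FPKM in KO, against 110.1 and 134.1 in WT. At MII they were 88.1 and 130.6 FPKM in KO, against 66.5 and 55.4 in WT. Both KO sums thus lay below both WT sums at GV and above them at MI and MII. Cyp19a1 made up most of the KO MI sums, with 100.8 and 92.0 FPKM, against 36.5 and 32.8 in WT MI. Without it the MI order of the sums was reversed, so that order rests on a single gene. Foxl2 and Lhcgr were at 0 in all libraries. Of the 11 tested, 0 were called at GV (background 0.163% higher and 1.4% lower of all tested genes). At MI 1 was called higher and 2 lower (background 27.9% higher and 0.463% lower). At MII 2 were called higher and 1 lower (background 25.4% higher and 3.2% lower). Those higher were the aromatase gene Cyp19a1 at MI (1.45, limma adjusted p = 0.0228) and the inhibin subunit genes Inha (3.11, adjusted p = 8.0e-04) and Inhba (adjusted p = 0.0326) at MII. Those lower were the cumulus matrix genes Tnfaip6 at MI (-1.81, limma adjusted p = 0.0314) and Ptx3 at MI and MII. Tnfaip6 had 1.25 and 1.19 FPKM in KO MI, against 7.88 and 5.79 in WT MI, and 0 in all GV and MII libraries. It met the filter of a mean of at least 1 FPKM only through its WT MI libraries, so nothing is read from its p-value. Ptx3 had 11.2 and 3.71 FPKM in KO MI, against 32.1 and 40.2 in WT MI, then 0.35 and 0 FPKM in KO MII, against 17.1 and 15.3 in WT MII, with limma adjusted p = 0.0191 at MI and 8.7e-04 at MII. It was at 0 in all 4 GV libraries. Of 11 salivary and glandular epithelium markers, 4 (Prol1, Smr3a, Smgc and Bpifa2) were at 0 in all libraries, and the 11 summed to 98.2 to 164.7 FPKM in KO libraries and 76.7 to 241.8 FPKM in WT libraries, most of it Cdh1. The part of other cells in these values was not tested.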

How the data were processed

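Polysome-bound RNA was measured in 12 libraries, 2 for each of 6 groups (KO and WT oocytes at GV, MI and MII). The authors deposited FPKM values for 23235 genes in 1 table, identical to the per-library files. Per the submitters' processing notes, the tools were Cufflinks 2.2.1, TopHat2 2.0.11, CASAVA 1.8 and Bowtie2 2.1.0, on mouse build mm9, with no role or order given. The sources used here do not give the annotation, strand handling, filters or read counts, so depth is unknown and precision is judged from replicates.

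FPKM were used as deposited, as log2(FPKM + 1), which understates changes of low genes. Genes with a mean of at least 1 FPKM (11667) entered limma 3.58.1 (R 4.3.3), with 6 group means, 6 residual degrees of freedom and moderated variances that follow abundance. All p are 2-sided and Benjamini-Hochberg adjusted over these genes, and called means below 0.05. The fit was tested on simulated data. Contrasts were KO minus WT per stage and the stage changes within each genotype. The 7 genes and the gene lists were chosen with earlier results of these data known. Alternatives were a pseudocount of 0.1, no filter, TPM, median scaling (genes with a mean of at least 10 FPKM), quantile normalization, leaving out each library, a replicate block, and fits of the compared groups alone. Named genes are the 7, Cnot6l, Dcpp3, up to the 4 most changed called genes per list and stage, and the 3 genes nearest each member by Pearson's r; others are named as chosen after their values were seen or as markers. Sequences were read with Python 3.11.15 and Biopython 1.88 from GENCODE M1 (NCBIM37) and from RefSeq promoters (GRCm38.p6), which held all 7 members. The result of 1 gene that this rule names is not reported here.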

Additional observations from a re-analysis of the deposited data

Results flagged for a closer look

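Of 33 genes named from the pathway lists or beside the 7 genes and Cnot6l, 12 had a KO minus WT difference that changed from GV to MI and 2 one that changed from MI to MII, by an interaction term in limma over all tested genes. These genes were named because they were called at a stage, which favours a change between stages, so the counts are a description. Of all 11667 tested genes, 1680 were called higher and 31 lower for the change from GV to MI, and 328 higher and 433 lower for that from MI to MII. From GV to MI the difference grew by 7.80 on the log2 scale for Chac1 (adjusted p = 1.9e-04), a value that depends on the added 1 since a group was at 0 at each stage. It grew by 1.75 for Ivd (0.0257), 2.48 for Bcat1 (0.0469), 2.097 for Dld (0.00924), 1.45 for Auh (0.00382), 3.61 for Ttll1 (0.0336), 2.55 for Oma1 (0.00568), 2.36 for Dnm1l (0.0208) and 1.61 for Fam54b (0.0106). Among chromosomal neighbours it grew by 1.95 for Tceb2 (0.00132), 0.96 for Gm6367 (0.0189) and 2.03 for Bclaf1 (0.0459). The median of this change over all tested genes was 1.13, and of these 12 genes only Chac1 was still called with median scaling (6.90, adjusted p = 0.00131). From MI to MII the difference grew by 2.57 for D5Ertd577e (adjusted p = 0.0136) and by 1.61 for Gm6367 (0.00211), both beside Cnot6l, where the median of all tested genes was -0.25. Both were also called with median scaling.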

How the results depend on the processing

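For the 7 genes, 335 of 336 KO minus WT values under 19 alternatives kept their sign. The exception was Agbl2 KO minus WT at GV, which was 0.095 without WT GV replicate 2 and -0.98 without WT GV replicate 1. Its lowest value was -1.16, with a pseudocount of 0.1. Counts of the 7 genes called moved as follows. Those higher in WT from GV to MI numbered 6, and 3 with a pseudocount of 0.1. The 1 lower in WT from MI to MII became 0 with that pseudocount or a replicate block. The 2 higher in KO from GV to MI became 1 with TPM or quantile normalization. The 1 lower in that comparison became 0 with a pseudocount of 0.1, no filter or a fit of the compared groups alone, and the 1 lower in KO from MI to MII became 0 with TPM, median scaling or quantile normalization. Pathway genes lower at GV (1) became 2 with no filter, and 0 with a replicate block or a fit of the compared groups alone. Those higher at MI (15) became 3 with TPM, 1 with median scaling and 1 with quantile normalization. Those higher at MII (20) became 10 with quantile normalization and 7 in a fit of the compared groups alone. Those lower at MII (1) became 0 with a pseudocount of 0.1, no filter, the block or that fit, 3 with median scaling and 2 with quantile normalization. Neighbours of the 7 genes and of Cnot6l, counted as 1 set, that were higher at MI (8) became 1 with TPM and 0 with median scaling or quantile normalization, under each of which 1 was lower, against 0 as deposited. Neighbours higher at MII (10) became 6 with quantile normalization and 3 in a fit of the compared groups alone. Cnot6l at MI passed with median scaling (-2.42, adjusted p = 0.0427) and in a fit of the compared groups alone (-1.49, adjusted p = 0.0475). At MII it did not pass with a pseudocount of 0.1 (-1.80), no filter (-1.75) or the block (-1.75). The cause of these changes was not tested.

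Leaving out 1 library at a time gave 5 to 6 of the 7 genes without overlap at GV, and 7 at MI and at MII. Counts of the 7 called ran from 3 to 6 (WT GV to MI, higher), 0 to 1 (WT MI to MII, lower), 2 to 2 and 0 to 1 (KO GV to MI, higher and lower) and 0 to 2 (KO MI to MII, lower). Pathway genes ran from 0 to 1 lower at GV, 8 to 23 higher at MI, 13 to 22 higher at MII and 0 to 2 lower at MII. Neighbours ran from 3 to 11 higher at MI and 7 to 10 at MII. Cnot6l ran from -1.84 to -0.21 at GV, -1.75 to -1.24 at MI and -1.95 to -1.55 at MII. A lone library was assumed to vary like the other groups.

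The replicate numbers did not pair the libraries: 15 correlations of deviations between groups ran from -0.029 to 0.055. With 2 libraries a group and unknown depth, values near 0 FPKM cannot be told from missing ones.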
